A study of Mus musculus with 12 samples.

Results

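The 10 genes described here mark mast cells and basophils, and were listed by name: Cma1, Tpsb2, Mcpt8, Gzmb, Cpa3, Fcer1a, Ms4a2, Cd200r3, Hdc and Cyp11a1. They are 10 of 37187 genes in the deposited expression table, and all 10 were among the 14045 genes with enough signal to be tested. Their RNA was measured in 12 libraries of LSK cells of mouse bone marrow, which lack lineage markers and carry Sca-1 and c-Kit, a gate for haematopoietic stem cells and multipotent progenitors. There were 3 libraries of each of 4 genotypes: wild type (WT), Tet2 knockout (Tet2 KO), Traf6 knockout (Traf6 KO) and a knockout of Tet2 and Traf6 together (dKO). The Tet2 protein oxidises methylated cytosine. The Traf6 protein attaches ubiquitin downstream of Toll-like and interleukin-1 receptors. The series title places TRAF6 as a suppressor of acute myeloid leukaemia that acts on MYC. Strain, age, sex and the way the alleles were deleted are not in the labels, nor is it stated that each library is its own animal. P-values therefore reflect how libraries of 1 group spread, and that spread may be technical.

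Mast cells and basophils are granulocytes that carry the high-affinity receptor for IgE. Binding of antigen to receptor-bound IgE makes them release granules that hold histamine and proteases. Mast cells mature in tissues and make chymases and tryptases, while basophils mature in the marrow and, in the mouse, make the protease Mcpt8. Both arise from bone marrow progenitors in which the factor GATA2 acts, and some of their genes, among them Cpa3, are already transcribed in multipotent progenitors. In a bulk library, more cells of a type and more RNA per cell cannot be told apart.

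The promoters of 4 members are shown because GATA factors, which bind sites with the core GATA, are known regulators of mast cell and basophil genes, and because these members cover the range of levels from 0 in WT (Cma1, Cd200r3) to the most abundant member (Cpa3). Each sequence holds the 250 bases before the transcription start, read 5′ to 3′ on the gene's own strand, from RefSeq on the build GRCm38.p6. Capitals mark the 6-base motifs AGATAA or AGATAG, and with another first base TGATAA or TGATAG, which were searched on both strands, so a motif on the opposite strand is printed as its reverse complement.
Cma1, chr14:55944676-55944925, minus strand: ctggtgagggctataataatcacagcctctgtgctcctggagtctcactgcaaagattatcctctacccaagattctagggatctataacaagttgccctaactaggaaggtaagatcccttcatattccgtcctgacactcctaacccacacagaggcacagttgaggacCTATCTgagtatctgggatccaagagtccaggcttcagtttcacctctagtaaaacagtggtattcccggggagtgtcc
Cd200r3, chr16:44943428-44943677, plus strand: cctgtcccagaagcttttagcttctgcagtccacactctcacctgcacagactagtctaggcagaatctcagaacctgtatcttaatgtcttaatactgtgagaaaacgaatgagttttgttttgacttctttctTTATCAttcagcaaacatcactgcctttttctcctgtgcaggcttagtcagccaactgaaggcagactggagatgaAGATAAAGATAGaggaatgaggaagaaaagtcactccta
Fcer1a, chr1:173227230-173227479, minus strand: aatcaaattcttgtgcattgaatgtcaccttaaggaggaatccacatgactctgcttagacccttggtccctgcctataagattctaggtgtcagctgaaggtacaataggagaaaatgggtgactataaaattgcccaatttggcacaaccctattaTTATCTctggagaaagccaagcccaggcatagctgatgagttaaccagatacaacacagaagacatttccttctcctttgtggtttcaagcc
Cpa3, chr3:20242182-20242431, minus strand: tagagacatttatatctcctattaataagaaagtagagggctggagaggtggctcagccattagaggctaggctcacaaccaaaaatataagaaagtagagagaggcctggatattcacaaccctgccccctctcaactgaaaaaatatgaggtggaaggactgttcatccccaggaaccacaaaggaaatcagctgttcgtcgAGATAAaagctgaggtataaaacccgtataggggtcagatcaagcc

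A window was found for 9 of the 10 members, Tpsb2 being the exception, and 7 of these 9 held at least 1 motif. Of all 32851 promoter windows of this length, 26.5% held at least 1 and 6.4% held at least 2. In Cma1 the motif lay 79 to 74 bases before the start, in Cpa3 46 to 41 bases and in Fcer1a 92 to 87 bases. Cd200r3 and Ms4a2 each had 3 motifs. In Cd200r3, 2 of them adjoined each other at 39 to 34 and 33 to 28 bases before the start. Mcpt8 and Gzmb had none in this window. These matches describe letters only, and no binding was measured.

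Values below are the authors' normalised signal, that is a gene's reads over the size factor of the library, and a mean is given with its SD over 3 libraries. Log2 changes are on the log2(signal + 1) scale, where the added 1 shrinks the change of a sparsely read gene. A change is called where its limma p, adjusted over all 14045 genes, was under 0.05. Libraries held 22169673 to 53921402 reads. In 2 libraries labelled as single knockouts, the RNA of the targeted gene stood within the WT range. Traf6 stood at 2474 in the library labelled Traf6 KO 1, within the WT range of 1935 to 3006, against 568 and 854 in the other Traf6 KO libraries. Tet2 stood at 668 in the library labelled Tet2 KO 1, within the WT range of 525 to 783. The other Tet2 KO libraries were at 403 and 486. Traf6 KO replicates 2 and 3 were as low, at 339 and 427, so the Tet2 level cannot decide whether the Tet2 KO 1 label is right. Xist, made from an inactive X chromosome, ranged over 990 to 3826 in the 6 single-knockout libraries and did not pass 17.0 elsewhere. Eif2s3y, on the Y chromosome, was at 2812 or higher in all WT and dKO libraries and at 1524 in the library labelled Traf6 KO 1, while the other 5 single-knockout libraries did not pass 55.4. Genotype and these sex-linked signals cannot be told apart in comparisons of either single knockout with WT or with dKO. The comparison of dKO with WT does not carry that difference. In dKO, the log2 difference of a gene from its WT mean also fell with transcript length. Its rank correlations with length across genes were -0.52, -0.59 and -0.60, against -0.40 to 0.29 in the other 9 libraries. Values with the length and GC trend removed are given where this moves a result.

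All 10 members had reads in every Traf6 KO and dKO library. In WT and Tet2 KO libraries, 5 to 8 of them had a read. Summed over the set, the WT libraries had a signal of 2439, 1467 and 2125, and the Tet2 KO libraries 1684, 2383 and 2280. The Traf6 KO libraries had 4176, 11217 and 5553, and the dKO libraries 7698, 12512 and 11817. No Traf6 KO or dKO library overlapped the WT or Tet2 KO libraries in this sum. The genes were a small part of the RNA, taking 0.00544% to 0.00934% of reads in WT and 0.0268% to 0.0433% in dKO. Cpa3 alone gave 73.6% to 83.2% of the summed signal in WT, but 45.5% to 56.5% in Traf6 KO and 46.1% to 53.3% in dKO, where the other members made up more of it.

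**Figure D1:**
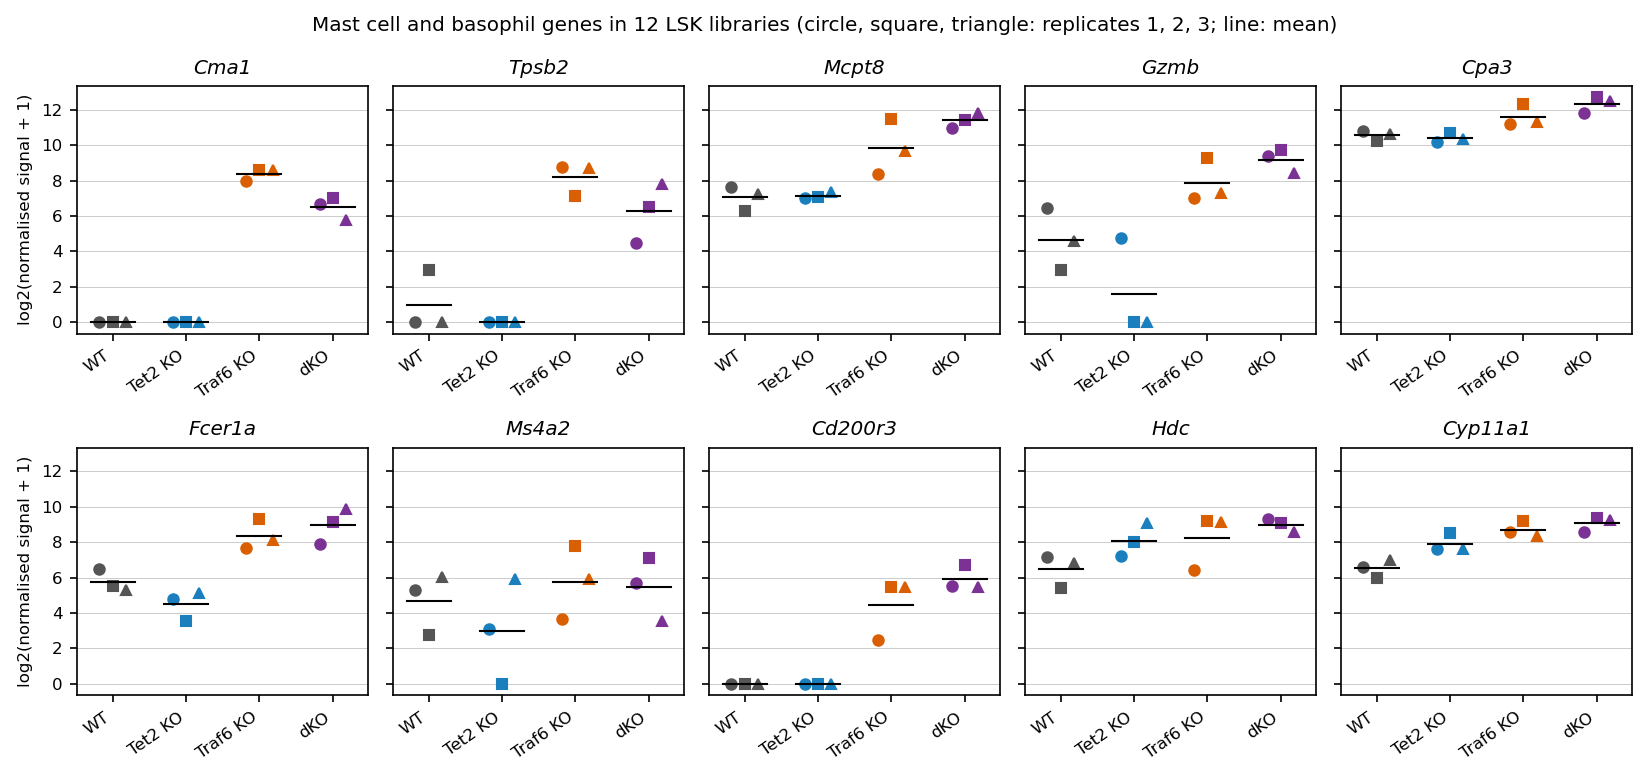
Levels of the 10 mast cell and basophil genes, 1 panel a gene, with log2(normalised signal + 1) on the vertical axis and genotype on the horizontal axis; each point is a library, its shape the replicate number, and the line is the mean of 3 libraries. Cma1 and Cd200r3 are at 0 in all WT and Tet2 KO libraries and above 0 in all Traf6 KO and dKO libraries.

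Per kilobase of the longest annotated transcript, a scale that allows for gene length, Cpa3 led in WT at 1063 ± 202 signal units (SD, n = 3). Mcpt8 came next at 150 ± 63.3, followed by Fcer1a at 57.4 ± 27.5. The WT libraries of Mcpt8 and Fcer1a overlapped on this scale, while those of Cpa3 and Mcpt8 did not. Cyp11a1 (27.7), Gzmb (27.0), Hdc (21.7) and Ms4a2 (14.9) followed with overlapping ranges. In dKO, Cpa3 reached 3654 ± 1101 and Mcpt8 2952 ± 806 per kilobase, with overlapping ranges, and Fcer1a at 583 and Gzmb at 430 formed the next overlapping pair. Cma1 was at rank 4 in Traf6 KO with 312 ± 70.4 per kilobase and at rank 7 in dKO with 87.9 ± 35.7. Its neighbours in Traf6 KO, Fcer1a at 372 and Tpsb2 at 256, overlapped it. Cd200r3 was lowest in both. Division by length does not remove the length trend in dKO. For transcripts up to 1500 nt, the median log2 difference of the dKO libraries from WT was 0.704, 1.09 and 2.53. Over 4000 nt it was -0.806, -1.42 and -1.41. The dKO order therefore leans towards short transcripts such as Mcpt8 (945 nt) and away from long ones such as Hdc (4518 nt).

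Of the granule protease genes, Cma1 encodes a mast cell chymase, a chymotrypsin-like serine protease stored in granules (GRCm38, chromosome 14, 55941451 to 55944675, minus strand). It had no read in any WT or Tet2 KO library. Traf6 KO libraries were at 251.9, 388.6 and 380.8, and dKO libraries at 103.2, 130.4 and 53.6. Every Traf6 KO library was above every dKO library, and the library labelled Traf6 KO 1, whose Traf6 was at the WT level, was the lowest of its group. Counting 3 reads in each library of a group at 0 as the floor, Cma1 was at least 121-fold higher in Traf6 KO than in WT (adjusted p = 2.03e-05) and at least 34.0-fold higher in dKO (adjusted p = 0.000208). Against Tet2 KO it was at least 134-fold higher in Traf6 KO (adjusted p = 4.06e-05) and at least 37.7-fold higher in dKO (adjusted p = 0.000208). These calls held under every alternative run.

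Tpsb2 encodes a mast cell tryptase, a trypsin-like protease bound to heparin in the granule (chromosome 17, 25366305 to 25369098, plus strand). Its WT libraries were at 0, 6.9 and 0, the middle value resting on 6 reads, and all Tet2 KO libraries were at 0. Traf6 KO libraries stood at 427.5, 140.4 and 420.7 and dKO libraries at 21.6, 90.0 and 223.4. The dKO libraries spread more than the Traf6 KO ones relative to their mean, and neither group overlapped WT. The change was 7.21 ± 1.0 (SE) in Traf6 KO against WT (adjusted p = 0.00489) and 5.28 ± 1.0 in dKO (adjusted p = 0.00161). The Traf6 KO call was lost with edgeR (adjusted p = 0.0757) and without both libraries that had their targeted gene at the WT level (adjusted p = 0.0667). Against Tet2 KO, Tpsb2 was at least 130-fold higher in Traf6 KO (adjusted p = 0.00223) and at least 44.0-fold higher in dKO (adjusted p = 0.00522). Without both of those libraries the adjusted p was 0.0858 and 0.0525, and the dKO call was also lost with only dKO and Tet2 KO fitted (adjusted p = 0.0549). Tpsb2 has a close paralogue, Tpsab1, so its reads could have been split between the genes.

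Mcpt8 encodes a granule protease of mouse basophils (chromosome 14, 56082166 to 56085273, minus strand). Unlike the chymase and tryptase genes it was read in every library, at 195.8, 77.7 and 152.9 in WT and at 128.7, 132.6 and 165.1 in Tet2 KO. Traf6 KO libraries spread widely, at 327.4, 2810 and 807.7, and dKO libraries stood at 2029, 2786 and 3553. All Traf6 KO and dKO libraries were above all WT libraries. Mcpt8 rose in dKO against WT by 4.35 ± 0.60 (adjusted p = 0.000379), from 142 ± 59.8 to 2789 ± 762, and by 3.03 with the length trend removed (adjusted p = 0.00245). In Traf6 KO against WT the change of 2.76 ± 0.60 was not called (adjusted p = 0.111). It was called without the library labelled Traf6 KO 1 (adjusted p = 0.0127), the lowest of the 3.

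Gzmb encodes granzyme B, a protease of cytotoxic lymphocytes that mast cells and basophils also store (chromosome 14, 56258838 to 56262260, minus strand). WT libraries were at 86.6, 6.9 and 23.1, Tet2 KO libraries at 26.4, 0 and 0. In Tet2 KO against WT it was called lower only without the library labelled Tet2 KO 1 (limma adjusted p = 0.0438), which held all its Tet2 KO reads. The Traf6 KO values were 130.1, 629.9 and 155.3, and the dKO values 672.8, 830.8 and 346.7. It rose in dKO by 4.51 ± 1.19 against WT (adjusted p = 0.00852). The Traf6 KO libraries lay above WT without a call (3.20 ± 1.19, adjusted p = 0.522). Of 15 NK and cytotoxic T cell genes, 4 were tested, and 1 (Nkg7, a granule membrane protein gene) rose in dKO against WT (adjusted p = 0.00724), a call lost with the length trend removed (log2 change 0.63, adjusted p = 0.054). Nkg7 stood at 7361, 10721 and 49423 in dKO against 4565, 3418 and 3888 in WT. The summed signal of the 15 genes was 3504 to 4704 in WT, 3699 to 5534 in Tet2 KO, 4428 to 6588 in Traf6 KO and 7548 to 49698 in dKO. In dKO, 8 of the 15 had no read (Gzma, Gzmk, Ncr1, Cd3e, Cd8a, Cd8b1, Eomes and Ifng), while the NK receptor genes Klrb1c (129.5, 155.2 and 71.5) and Klrd1 (4.7, 35.2 and 126.9) did. The part of such cells in the Gzmb result was not tested.

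Cpa3 encodes mast cell carboxypeptidase A, which trims peptides from their C-terminal end (chromosome 3, 20215620 to 20242181, minus strand). It was the most abundant member in every group, with WT libraries at 1794, 1220 and 1608 and Tet2 KO libraries at 1149, 1626 and 1299. Traf6 KO libraries reached 2360, 5184 and 2524, and dKO libraries 3547, 6672 and 5667. It rose in dKO against WT from 1541 ± 293 to 5295 ± 1595, a log2 change of 1.75 ± 0.33 (adjusted p = 0.00154). With the length trend removed this came to 0.97 (adjusted p = 0.0314). In Traf6 KO the change of 1.04 ± 0.33 was not called (adjusted p = 0.38), although no library overlapped WT.

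Among the surface receptors, the ligand-binding chain of the IgE receptor was called in dKO against WT and its signal-amplifying chain was not. The chains were not tested against each other. Fcer1a encodes the alpha chain, which binds IgE (chromosome 1, 173221284 to 173227214, minus strand). It stood at 88.7, 44.6 and 38.5 in WT and at 26.4, 10.6 and 34.2 in Tet2 KO, all Tet2 KO libraries lying just below WT (-1.28, adjusted p = 0.638). Traf6 KO libraries were at 201.9, 636.9 and 275.1 and dKO libraries at 232.7, 571.3 and 940.1. Fcer1a rose in dKO by 3.20 ± 0.63 against WT (adjusted p = 0.00195) and by 4.48 ± 0.63 against Tet2 KO (adjusted p = 0.00342). The Traf6 KO change was not called against WT (2.60 ± 0.63, adjusted p = 0.162) but was called against Tet2 KO (3.88 ± 0.63, adjusted p = 0.0221). The latter call was lost without Tet2 KO replicate 2 (adjusted p = 0.129), Traf6 KO replicate 2 (0.114) or Traf6 KO replicate 3 (0.0655), without both libraries that had their targeted gene at the WT level (0.0949) and with the replicate block (0.0746).

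Ms4a2 encodes the beta chain of the same receptor (chromosome 19, 11615523 to 11623719, minus strand). It was the only member without a call in any comparison. The 3 WT values were 37.6, 5.7 and 63.5, and the Tet2 KO values 7.4, 0 and 58.5. Traf6 KO libraries had 11.8, 214.6 and 58.6, and dKO libraries 51.6, 135.6 and 10.7. The libraries of each group ranged over more than the groups differed, and the change in dKO against WT was 0.78 ± 1.46 (adjusted p = 0.683). Fcer1g, the gamma chain that this receptor shares with other Fc receptors, was at 409.9 ± 135 in WT and 1691 ± 1604 in dKO. Its rise of 1.67 (adjusted p = 0.0225) came to 0.15 (adjusted p = 0.728) with the length trend removed.

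Cd200r3 encodes an activating receptor of the CD200 receptor family found on basophils and mast cells (chromosome 16, 44943678 to 44981380, plus strand). It had no read in any WT or Tet2 KO library. It stood at 4.5, 42.9 and 42.6 in Traf6 KO, with the library labelled Traf6 KO 1 lowest, and at 45.0, 104.3 and 42.9 in dKO. In dKO it was at least 22.8-fold higher than in WT (adjusted p = 0.000698) and at least 25.2-fold higher than in Tet2 KO (adjusted p = 0.00528). In Traf6 KO it was at least 10.7-fold higher than in WT with no call (adjusted p = 0.103), and was called without the library labelled Traf6 KO 1 (adjusted p = 0.0284).

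The enzyme genes Hdc and Cyp11a1 lay above WT in every Tet2 KO library, though neither was called there. They were not tested against the other members. Hdc encodes histidine decarboxylase, which makes histamine (chromosome 2, 126593667 to 126619299, minus strand). WT libraries had 139.8, 42.3 and 111.6, and Tet2 KO libraries 148.7, 252.7 and 532.1. Values of 84.6, 587.0 and 569.8 were found in Traf6 KO and of 619.4, 534.8 and 377.1 in dKO. All Tet2 KO libraries lay above all WT libraries, without a call (1.63 ± 0.71, adjusted p = 0.533). Hdc rose in dKO against WT by 2.51 ± 0.71 (adjusted p = 0.012), a call lost without WT replicate 2 (adjusted p = 0.0588). Against Tet2 KO the dKO difference was 0.88 ± 0.71 (adjusted p = 0.348), and the groups overlapped.

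Cyp11a1 encodes the mitochondrial enzyme that turns cholesterol into pregnenolone, the first step of steroid synthesis (chromosome 9, 58006411 to 58027023, plus strand). The WT libraries were at 96.5, 62.8 and 127.0, the Tet2 KO libraries at 198.3, 361.1 and 191.5. Traf6 KO gave 376.5, 582.4 and 318.6, and dKO 375.4, 657.4 and 602.3. All 9 knockout libraries were above all WT libraries. Cyp11a1 rose in dKO against WT by 2.52 ± 0.40 (adjusted p = 0.000668) and in Traf6 KO by 2.16 ± 0.40 (adjusted p = 0.043). The Traf6 KO call was lost under several alternatives, among them leaving out any WT or Traf6 KO library, and its adjusted p reached 0.326. The Tet2 KO change of 1.37 ± 0.40 was not called (adjusted p = 0.208).

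**Figure D2:**
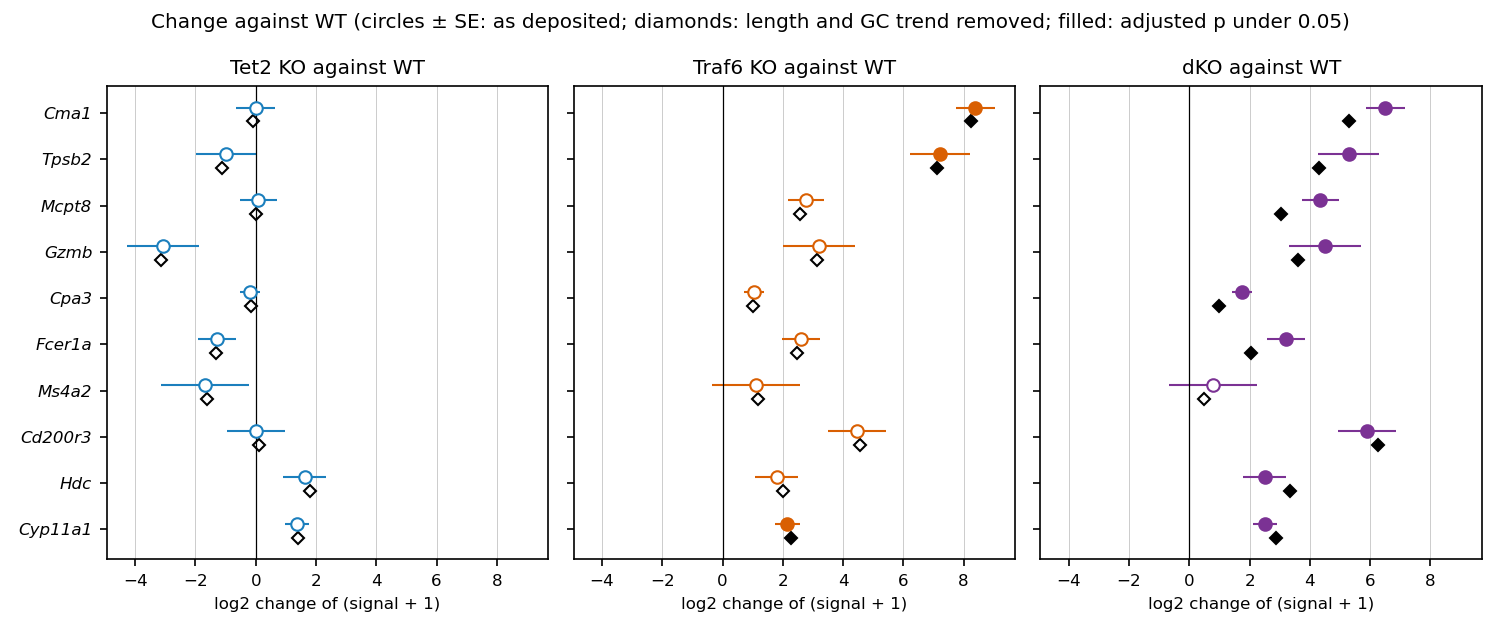
Log2 change of each member against WT in Tet2 KO, Traf6 KO and dKO, on the log2(normalised signal + 1) scale, shown as circles with bars of 1 SE from the limma fit and as diamonds with the length and GC trend removed, filled where the adjusted p was under 0.05; changes of Cma1 and Cd200r3 start from groups at 0 and depend on the added 1. In dKO and Traf6 KO all 10 points lie above 0, while in Tet2 KO they fall on both sides of it.

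Counted over the set, 9 of 10 members rose in dKO against WT, all but Ms4a2. Of these, Cma1, Tpsb2 and Cd200r3 passed the filter on signal only through Traf6 KO and dKO, so their part in the count and median is no independent support. The called members without that limit were Mcpt8, Gzmb, Cpa3, Fcer1a, Hdc and Cyp11a1. Of all genes tested, 48.3% were called in this comparison and 21.9% were called higher. The median change of the members was 3.78, against -0.09 over all genes tested, and 3.19 against 0.04 after removal of the length and GC trend. Because the members were chosen with earlier results of these data known, values over all genes, here and below, give scale and no independent test. After that removal the same comparison called 16.8% of genes higher, and again 9 members. In 9 members the dKO libraries lay wholly above WT, which held for 27.9% of all genes tested. Leaving out dKO replicate 3, whose total signal was 39973892 against 25557760 to 28916082 in the other libraries, again gave 9.

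In Traf6 KO against WT, 3 members rose: Cma1, Tpsb2 and Cyp11a1. Of all genes tested, 0.271% were called and 0.0783% were called higher, 11 genes in all. The median change of the members was 2.68, against -0.03 over all genes. In 8 members, all but Ms4a2 and Hdc, the Traf6 KO libraries lay wholly above WT, against 9.68% of all genes. edgeR on the recovered reads called 1 member and 0.199% of all genes, and DESeq2 called 6 members and 1.19% of all genes. Without the library labelled Traf6 KO 1, 4 members were called: Cma1, Tpsb2, Mcpt8 and Cd200r3. Traf6 KO replicate 2 was the highest of its group in 9 of 10 members, Tpsb2 being the exception, where it was lowest. The comparisons of Traf6 KO and dKO share the WT libraries, so their values are set side by side only. Cma1, Tpsb2 and Cd200r3 reached a signal of 10 in no WT library and entered the test only through the groups where they are high.

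In Tet2 KO against WT, no member was called by limma, with 3 at an unadjusted p under 0.05. edgeR also called 0 and DESeq2 called 1, Cyp11a1. Without the library labelled Tet2 KO 1, limma called Gzmb lower (adjusted p = 0.0438), among 146 genes in all. With all libraries, limma called 0.413% of all genes tested. Libraries lay wholly above WT in 2 members (Hdc and Cyp11a1) and wholly below in 1 (Fcer1a), against 8.07% of all genes wholly above and 11.1% wholly below. In dKO against Tet2 KO, 8 members rose, all but Ms4a2 and Hdc, where 35.3% of all genes were called and 15.5% called higher. These 8 include Cma1, Tpsb2 and Cd200r3, which had no read in Tet2 KO and passed the filter only through Traf6 KO and dKO. With the trend removed, 9.02% of genes were called higher and again 8 members. The same 8 members lay wholly above Tet2 KO, which held for 22.0% of all genes. The Cyp11a1 call (1.14, adjusted p = 0.0416) was lost without the library labelled Tet2 KO 1 (adjusted p = 0.133). It was also lost without that labelled Traf6 KO 1 (adjusted p = 0.0538). Leaving out WT replicate 1, Tet2 KO replicate 3, dKO replicate 2 or dKO replicate 3 lost it too (adjusted p of 0.0545, 0.121, 0.122 and 0.0918). So did edgeR, no filter on signal, equal library totals, the replicate block and the 2 fits below. Without both libraries that had their targeted gene at the WT level, 5 members were called (Cma1, Mcpt8, Gzmb, Fcer1a and Cd200r3), among 57 genes in all. Where the fit left out WT and Traf6 KO, 3 members were called (Cma1, Mcpt8 and Fcer1a), among 24 genes in all. The main fit called 4963 genes. In Traf6 KO against Tet2 KO, 3 members rose, Cma1, Tpsb2 and Fcer1a, with 0.157% of all genes called and 0.0783% called higher. Cma1 and Tpsb2 carry the same limit of the filter there. Libraries of 7 members lay wholly above Tet2 KO, against 7.35% of all genes.

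Between dKO and Traf6 KO, the libraries of 9 members overlapped, and those of Cma1 lay wholly lower in dKO, which held for 21.8% of all genes. Cma1 was lower in dKO by the limma test, a log2 change of -1.88 ± 0.66 (adjusted p = 0.038), where 38.0% of all genes were called and 20.7% called lower. This call was lost when any 1 of the 6 libraries of these groups was left out, with adjusted p from 0.052 to 0.122, and the adjusted p was 0.0212 with the length trend removed. Tpsb2 differed by -1.93 ± 1.0 (adjusted p = 0.14), and by -2.83 with the trend removed (adjusted p = 0.0478). Mcpt8 differed the other way, by 1.58 ± 0.60 (adjusted p = 0.0524), which came to 0.46 with the trend removed (adjusted p = 0.594). Mcpt8 and Cpa3 were called higher in dKO without Traf6 KO replicate 2 (adjusted p = 0.00473 and 0.0226) or without dKO replicate 1 (adjusted p = 0.0409 and 0.0249), and Mcpt8 also with a pseudocount of 5 (adjusted p = 0.049). With all libraries the Cpa3 difference was 0.71 ± 0.33 (adjusted p = 0.104). The other 6 members were not called. The interaction, whether the dKO to Tet2 KO difference departs from the Traf6 KO to WT difference, was called for 0 members by limma, edgeR and DESeq2. One member, Gzmb, had an unadjusted limma p under 0.05 (adjusted p = 0.247), and 0.221% of all genes were called.

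The balance of the chymase and basophil protease genes within a library was compared, a pair chosen after the values were seen. Cma1 signal was 76.9%, 13.8% and 47.1% of Mcpt8 signal in the Traf6 KO libraries and 5.09%, 4.68% and 1.51% in dKO. All Traf6 KO libraries were above all dKO libraries. The log2 ratio was -1.44 ± 1.27 (SD, n = 3) in Traf6 KO and -4.90 ± 0.97 in dKO. An exact two-sided permutation test gave p = 0.1, the smallest that 3 libraries against 3 allow, and 0.2 when adjusted over the 4 pairs of members compared. The difference was 3.47, or 3.39 after that trend was removed. Cma1 as a share of Cpa3 was 10.7%, 7.50% and 15.1% over the Traf6 KO libraries against 2.91%, 1.96% and 0.946% over those of dKO, also without overlap (log2 difference 2.59, exact permutation p = 0.1). The other pairs overlapped: the log2 ratio of Tpsb2 to Mcpt8 was -1.62 ± 2.42 in Traf6 KO and -5.14 ± 1.26 in dKO, and that of Mcpt8 to Cpa3 -1.79 ± 0.99 and -0.91 ± 0.31 (exact permutation p = 0.2 for each).

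**Figure D3:**
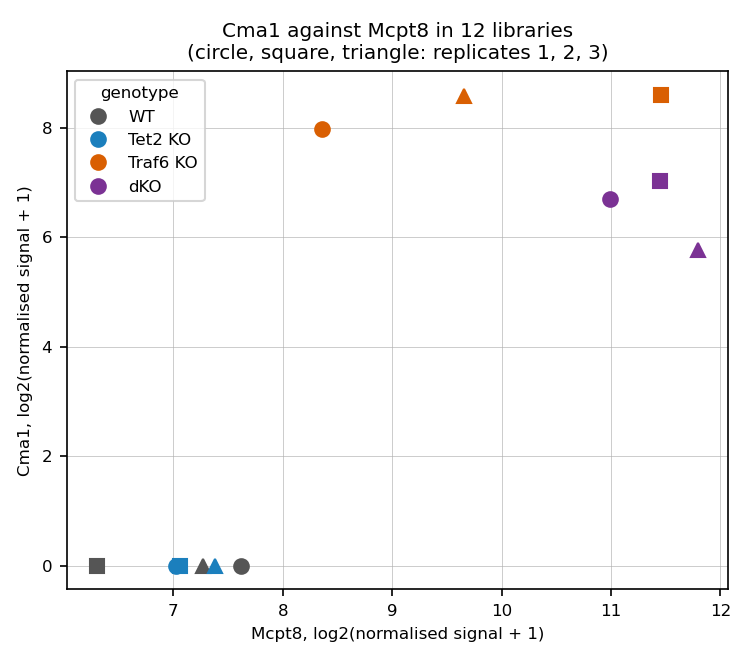
Cma1 against Mcpt8 in 12 libraries, both axes in log2(normalised signal + 1), coloured by genotype with a shape for each replicate number. WT and Tet2 KO libraries lie at 0 on the Cma1 axis, and the 3 dKO libraries lie below the 3 Traf6 KO libraries on it.

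Cma1, Mcpt8 and Gzmb lie in the chymase locus of chromosome 14, where 15 annotated genes from Cma1 to Gzmb span 320.8 kb. Reads from 3 of these genes, Mcpt8, Ctsg and Gzmb, were found in WT and Tet2 KO, and from 8 in Traf6 KO and dKO. The other 7 (Mcpt9, Gzmc, Gzmd, Gzme, Gzmf, Gzmg and Gzmn) had no read in any library. Of the 8, Cma2 and Mcpt1 did not pass 3 reads in any library. Mcpt2 had 12 reads in Traf6 KO replicate 3, 19 in dKO replicate 3 and none elsewhere. Mcpt4, a chymase of connective tissue mast cells, was at 0 in all WT and Tet2 KO libraries. It stood at 106.4, 0 and 76.3 in Traf6 KO and at 0, 0 and 41.1 in dKO, so that 1 Traf6 KO library with the highest Mcpt8 and Cma1 had no Mcpt4 read. Ctsg, the cathepsin G gene beside Mcpt8, was at 1327 ± 580 in WT and 29201 ± 17935 in dKO, a rise of 4.41 ± 0.66 (adjusted p = 0.000509). Ctsg is also a gene of neutrophil and monocyte progenitors. Chymase and granzyme genes are near-identical copies in places, so reads could have been split or dropped between them.

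**Figure D4:**
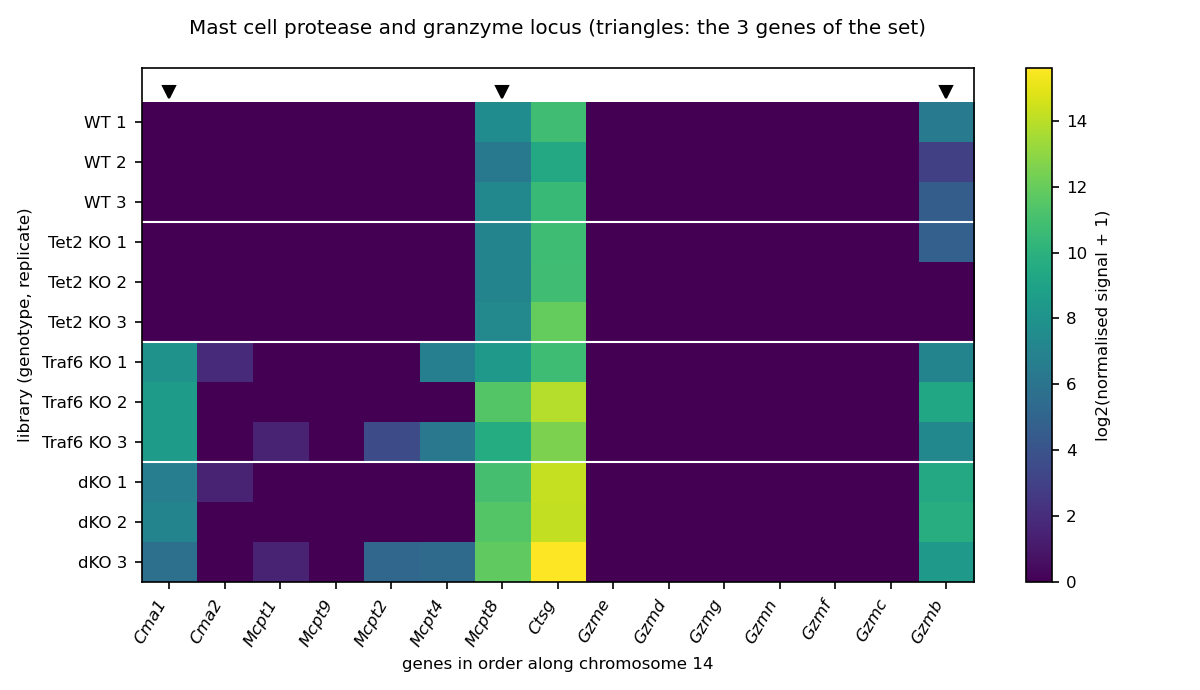
Heat map of the 15 genes of the chymase locus (columns, in order along chromosome 14) in 12 libraries (rows, by genotype), coloured by log2(normalised signal + 1); triangles mark Cma1, Mcpt8 and Gzmb. Mcpt8, Ctsg and Gzmb have signal in WT, while Cma1 and Mcpt4 have signal only in Traf6 KO and dKO libraries.

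Other genes of the same cells were read from lists that did not include the members. Prss34, a basophil protease gene, did not follow them: WT libraries had 97.2, 4.6 and 0 and Tet2 KO libraries 65.4, 0 and 7.8, while every Traf6 KO library was at 0 and dKO libraries had 0, 1.3 and 0. Mrgprb2, a receptor of connective tissue mast cells, was at 16.4, 0 and 8.9 in Traf6 KO and at 0 in the other 9 libraries. Counts of these lists in dKO against WT stand beside 21.9% of all genes called higher and 26.5% called lower. Those with the length and GC trend removed stand beside 3990 of 13677 genes called, of which 2304 (16.8% of all genes) were higher and the rest lower. Of 19 tested genes of IgE receptor signalling, 3 rose and 8 fell in dKO against WT, with a median change of -0.33 against -0.09 over all genes. With the length and GC trend removed, 1 rose (Lat2, an adaptor of mast cell signalling) and 4 fell (Fyn, Inpp5d, Pik3cd and Plcg1). Of 14 genes of mediator synthesis and storage, 6 rose and 4 fell, and with the trend removed 4 rose (Alox5ap, Ccl3, Ccl4 and Srgn) and 2 fell (Ndst2 and Ptgs1). Srgn, the proteoglycan core that binds proteases in granules, rose by 1.61 (adjusted p = 0.00549). None of the genes in these lists was called in Traf6 KO against WT.

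Of 19 tested receptor and surface genes, 5 rose (Il3ra, Cd63, Cd200r4, Fcgr2b and Fcgr3) and 3 fell (Kit, Csf2rb2 and Itga2) in dKO, with a median of 0.69. With the trend removed, 4 rose (Il3ra, Cd63, Fcgr2b and Fcgr3) and 1 fell (Kit). Itga2 was at 127 ± 35.3 in WT and 30.4 ± 11.9 in dKO, and Csf2rb2 at 171 ± 28.1 and 79.2 ± 29.4. Il3ra, the alpha chain of the receptor for interleukin 3, a growth factor of basophils, rose by 1.12 (adjusted p = 0.0327). Kit, the stem cell factor receptor that mast cells need and that defines the sorting gate, fell by 2.99 (adjusted p = 0.000326), or by 1.91 after trend removal. Of 19 transcription factor genes of the lineage, 2 rose and 13 fell, with a median of -0.93, and 0 rose and 4 fell with the trend removed: Bhlhe40, Gata2, Stat5b and Zfpm1. Gata2 was at 13443 ± 2122 in WT and 4432 ± 1281 in dKO, a fall of 1.63 (adjusted p = 0.000413), or of 0.83 with the trend removed (adjusted p = 0.0097). In Traf6 KO it stood at 13255, with a change of -0.02 (adjusted p = 0.992). Of 6 tested genes of steroid synthesis, 3 rose in dKO (Hsd17b1, Fdx1 and Tspo). Cyp11b1 and Hsd3b6, which act after Cyp11a1, had no read in any library.

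Genes of neighbouring lineages moved in the same libraries. Of 10 genes of neutrophil and monocyte progenitors, Ctsg among them, 6 rose in dKO against WT (Mpo, Elane, Prtn3, Ctsg, Ms4a3 and Ly6c2) and 0 fell, with a median of 2.93. Their summed signal ranged from 16155 to 29644 over the WT libraries and from 49212 to 105970 over the Tet2 KO libraries. It was 19124 to 122410 in Traf6 KO and 125750 to 205520 in dKO. Each of the 10 had reads in every group. In Tet2 KO this sum lay wholly above WT, most of it from Mpo at 40669 to 85126. None of the 10 was called there, and with the trend removed Ly6c2 alone was called. The members' sum in Tet2 KO overlapped WT. The part of these progenitor genes in the members' results was not tested. Of 4 tested eosinophil genes none was called in dKO against WT, with a median of 1.37, or 0.45 with the trend removed. Prg2, the major basic protein gene, was at 11.3, 41.7 and 55.4 in dKO and 10.6, 5.7 and 7.7 in WT. Cebpe, a granulocyte transcription factor gene, was at 55.4, 31.3 and 73.3 against 24.1, 12.6 and 19.2. The summed signal of 9 eosinophil genes was 49.1 to 77.3 in WT and 89.1 to 218 in dKO, and its part in the members' results was not tested. Of 10 LSK marker genes, 1 rose and 5 fell, and none was at 0 in all libraries of a group.

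The members' levels over the 12 libraries were alike for most genes. Pearson's r of a member with the mean of the other 9, on standardised log2 values, was 0.97 for Cd200r3, 0.964 for Mcpt8, 0.927 for Cpa3 and 0.925 for Fcer1a. It was lowest for Ms4a2 at 0.523 and Hdc at 0.617. Outside the set, the 5 genes with the highest r to the members' mean were Hbb-b2 (0.953), Pcna-ps2 (0.946), Fam175a (0.939), Pdia5 (0.93) and Cfp (0.926). By the members' summed signal the 12 libraries fall into 2 sets, WT with Tet2 KO and Traf6 KO with dKO, so these values largely describe that division. It is a division by the members, since over all genes 0.271% were called in Traf6 KO against WT and 38.0% in dKO against Traf6 KO. Hbb-b2, an adult beta-globin gene, and Pcna-ps2, a pseudogene of Pcna, have near-identical copies and their read counts are uncertain. Cfp, the complement factor properdin, stood at 728 ± 163 in WT and 862 ± 113 in Tet2 KO, and at 1674 ± 372 in Traf6 KO and 3572 ± 740 in dKO.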

How the data were processed

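RNA of sorted marrow cells was amplified with a SMART-Seq low-input kit, which does not mark strand. The authors deposited 1 table of 37187 genes by 12 libraries as normalised signal. Per the submitters' processing notes, bcl2fastq, STAR, featureCounts and DESeq2 were used with mm10 and GRCm38. Their versions are not given in the sources used here. Division by each library's smallest step gave whole reads for 100% of values (tolerance 1e-06).

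The members and gene lists were chosen with earlier results of these data known. Tested genes had a signal of 10 or more in 3 or more libraries. The test was limma 3.58.1 (R 4.3.3; trend and robust) on log2(signal + 1), 4 groups, no covariates, Benjamini-Hochberg over 14045 genes, threshold 0.05. A group at 0 was set to 3 reads per library, a floor for counting error only.

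Alternatives were edgeR 4.0.16 and DESeq2 1.42.0 on recovered reads, another pseudocount, no filter, equal totals, a replicate block, only the groups compared, each library left out, and loess removal of length and GC trends (GENCODE lengths for 97.4% of tested genes). For dKO against WT, edgeR called 6607 genes and DESeq2 7478. Scripts were tested on simulated data. Named genes were the members in every library, the targeted and sex-linked genes as checks, list genes past the threshold or with the smallest p or highest level, and the 5 most alike. Prss34, Mrgprb2, Cyp11b1, Hsd3b6 and the genes given as having no read were named after their values were seen.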

Additional observations from a re-analysis of the deposited data

How the results depend on the processing

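The count of members called in dKO against WT (9) stayed within 8 to 9 when any library was left out, and the interaction count was 0 under each alternative that could be run. For Traf6 KO against WT (3), edgeR gave 1, DESeq2 6, removal of the length and GC trend without the library labelled Traf6 KO 1 gave 6, and leaving out libraries 2 to 4. For Tet2 KO against WT (0), DESeq2 gave 1, Cyp11a1 higher. Leaving out single libraries gave 0 to 1, the 1 being Gzmb lower. For dKO against Tet2 KO (8, among 4963 genes called), only these groups in the fit gave 3, among 24 genes called. Leaving out both libraries with their targeted gene at the WT level gave 5, among 57 genes called, and single libraries 7 to 8. For dKO against Traf6 KO (1, Cma1 lower), a pseudocount of 5 gave 2 and trend removal 2. No filter gave 0, as did only these groups in the fit. Leaving out both libraries with their targeted gene at the WT level gave 0. Trend removal without the library labelled Traf6 KO 1 also gave 0. Single libraries left out gave 0 to 2, the 2 being Mcpt8 and Cpa3 higher. For Traf6 KO against Tet2 KO (3), DESeq2 gave 6, trend removal without the library labelled Traf6 KO 1 gave 5, and single libraries 2 to 5. The cause of these moves was not tested. Replicate numbers did not pair the samples, with correlations of same-numbered libraries from -0.177 to 0.193. With the replicate block the counts were 0 (Tet2 KO), 2 (Traf6 KO) and 9 (dKO) against WT, 7 for dKO against Tet2 KO, 0 for dKO against Traf6 KO, 2 for Traf6 KO against Tet2 KO and 0 for the interaction.

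Directions turned for uncalled changes only. With single libraries left out, Mcpt8 in Tet2 KO against WT ranged from -0.29 to 0.37 (-0.02 without Tet2 KO replicate 3), and Ms4a2 in dKO against WT from -0.19 to 1.73. Between dKO and Traf6 KO, trend removal gave -0.042 for Cpa3 and -0.43 for Fcer1a, with or without the replicate block, and without the library labelled Traf6 KO 1 also -0.33 for Cpa3, -0.85 for Fcer1a and -0.33 for Mcpt8. Of 45 gene results, 22 kept direction and call under every alternative. The fit with only the groups compared was not run for the interaction. Genes called over all settings ranged from 18 to 167 in Traf6 KO and from 3830 to 7768 in dKO against WT. Leaving out both libraries with their targeted gene at the WT level was chosen after seeing the data. So was trend removal without the library labelled Traf6 KO 1. Reads limit the genes at 0, where a floor of 3 reads per library sets the fold.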
